A study of Homo sapiens with 8 samples.

Results

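The cytosolic ribosomal protein genes encode the proteins of the ribosome that works outside mitochondria. Their members were chosen by symbol, as RPL or RPS followed by a number and an optional A, X, L or AL, together with RPLP0, RPLP1, RPLP2, RPSA and FAU, and the rule found 83 of the 60332 genes measured, each listed once. Of these, 50 belong to the large subunit and 33 to the small subunit, and 81 passed the filter of a mean of at least 1 FPKM (reads scaled to transcript length and library size) over the 8 libraries. Poly(A) RNA was measured in the established Ewing sarcoma cell lines RD-ES and SK-N-MC, each with 2 libraries of control and 2 of eKD2 cells, which the study describes as biological duplicates. eKD2 cells expressed dCas9-KRAB, a Cas9 that cannot cut DNA joined to the KRAB repressor domain, with a guide RNA placed next to the GGAA repeat of the LOXHD1 enhancer. Control cells carried, per the labels, dCas9-KRAB virus without a guide, although the study text calls them parental, so the sources differ on whether the controls went through infection and selection. Per the labels, virus was used at a multiplicity of infection of 10, puromycin at 1 µg/ml for 3 days, and cells within 5 passages. KRAB silences chromatin around any site the guide reaches, and no measure of guide binding was used here.

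Ribosomal proteins coat the ribosomal RNAs of the large (60S) and small (40S) subunits, and each functional ribosome needs nearly all of them in equal number. Their mRNAs are among the most abundant of a growing cell and mostly start with a C followed by a run of pyrimidines (the 5′ TOP motif), through which the mTORC1 kinase complex and the RNA-binding protein LARP1 control their translation and stability. A few genes have paralogues whose products can take the place of the common protein in the particle.

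The bases around annotated starts are shown for 9 genes on which the results below turn. Of the 83 genes, 66 were in the RefSeq table of promoters (GRCh38.p14). Each stretch runs 5′ to 3′ on the strand of the gene, with 10 bases before the first transcribed base and 20 bases from it on, and capitals mark the longest run of pyrimidines that begins within 10 bases of the start.
RPS12, chr6:132814559-132814588, plus strand: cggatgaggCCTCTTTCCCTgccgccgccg
RPL24, chr3:101686699-101686728, minus strand: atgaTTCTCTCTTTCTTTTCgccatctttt
RPL39, chrX:119791611-119791640, minus strand: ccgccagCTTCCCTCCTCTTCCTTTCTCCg
RPS6, chr9:19380217-19380246, minus strand: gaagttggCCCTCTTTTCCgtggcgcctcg
RPS26, chr12:56041908-56041937, plus strand: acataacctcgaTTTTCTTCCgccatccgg
RPS27, chr1:153990752-153990781, plus strand: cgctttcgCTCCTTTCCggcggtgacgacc
RPS27L, chr15:63157458-63157487, minus strand: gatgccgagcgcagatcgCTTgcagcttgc
RPL36A, chrX:101391001-101391030, plus strand: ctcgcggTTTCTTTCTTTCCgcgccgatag
RPL36AL, chr14:49620607-49620636, minus strand: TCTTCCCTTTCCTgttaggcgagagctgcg
RPS12 and RPL24 were among the genes with the highest SK-N-MC change by moderated t, RPL39, RPS27 and RPL36A are the partners of paralogues, and RPS6 and RPS26 stood farthest apart between the lines. RPS12 has 10 pyrimidines counted from the first base, RPL24 10, RPL39 19 and RPS27 7. RPS27L has none at its first base and a longest run of 3, and RPL36AL has 3 from the first base, at the end of a run of 13 that starts 10 bases upstream. At least 5 pyrimidines from the first base were present in 43 of the 66 genes (65.2%), against 5.07% of the 27239 other genes in the table. The ETS core CCGGAAG, searched on both strands of the 250 bases before and 50 bases after each start, was in 33.3% of the 66 and 10.6% of the others. The TATA box TATAAA, searched likewise, was in 9.09% against 12.0%, and the E box CACGTG in 4.55% against 7.44%.

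LOXHD1, the gene downstream of the silenced enhancer, fell in both lines. Its FPKM were 21.4 and 21.2 in the RD-ES controls against 1.04 and 1.02 after eKD2, and 159 and 169 in the SK-N-MC controls against 11.0 and 12.0 after eKD2. The log2 fold changes were -3.46 and -3.73 (SE 0.0782 each, limma adjusted p = 1.1e-04 and 3.7e-05). Replicate libraries correlated across genes with r of 0.937 to 0.945, which describes the libraries and is no test. The deposited values do not give read numbers, and depth read from the steps of low FPKM spanned from 1 (RD-ES eKD2 replicate 1) to 4.02 times that library (SK-N-MC control replicate 1), an estimate shared by 15.0% to 21.0% of the low genes of a library. Of 7 Ewing sarcoma markers, all were above 2 FPKM in every library, with CD99 at 201 to 586 FPKM. The T cell gene CD3E and the keratin gene KRT5 were at 0 in all libraries, whereas the leukocyte marker PTPRC was at 19.2 to 22.6 FPKM and the fibroblast marker DCN at 134 to 159 FPKM in SK-N-MC, against at most 0.0173 and 2.90 FPKM in RD-ES. Of the 3 fibroblast markers, LUM was at 37.9 to 43.8 FPKM in SK-N-MC and at 3.47 to 4.81 FPKM in RD-ES, and PDGFRA was at most 1.19 FPKM in every library. Within SK-N-MC, DCN was higher in both eKD2 libraries (159 FPKM in each) than in the controls (138 and 134 FPKM), while PTPRC and LUM overlapped between the groups. Of the other epithelial markers, EPCAM was at 4.03 and 4.54 FPKM in SK-N-MC control against 3.68 and 2.96 FPKM in eKD2, lower in both eKD2 libraries, and at most 0.971 FPKM in RD-ES. CDH1 was at 3.50 FPKM in RD-ES eKD2 replicate 1 and at most 0.168 FPKM in the other 7 libraries. The part of these markers in the results below was not tested. In bulk RNA, fewer cells of a kind and less RNA per cell cannot be told apart, and FPKM are shares of a library, so that a change in the total RNA of the cells is not visible.

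Ribosomal protein genes were among the most abundant mRNAs of both lines. Of the 100 genes with the highest mean FPKM they made up 49 in RD-ES control, 51 in RD-ES eKD2 and 60 in each SK-N-MC group. Their FPKM summed to 14.9% and 14.8% of the total in the RD-ES control libraries and to 14.9% in both RD-ES eKD2 libraries. The share was 16.1% in both SK-N-MC control libraries and 17.5% and 17.8% in the SK-N-MC eKD2 libraries, which lay above both controls. Without genes whose longest transcript has under 200 bases, for which FPKM is unstable, the shares were 16.0%, 16.2%, 15.7% and 16.1% in RD-ES and 16.9%, 17.2%, 18.2% and 18.8% in SK-N-MC (control replicates, then eKD2 replicates), again with both SK-N-MC eKD2 libraries above their controls. The median over the 81 genes was 1087 FPKM in RD-ES control against 1286 FPKM in SK-N-MC control.

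**Figure D1:**
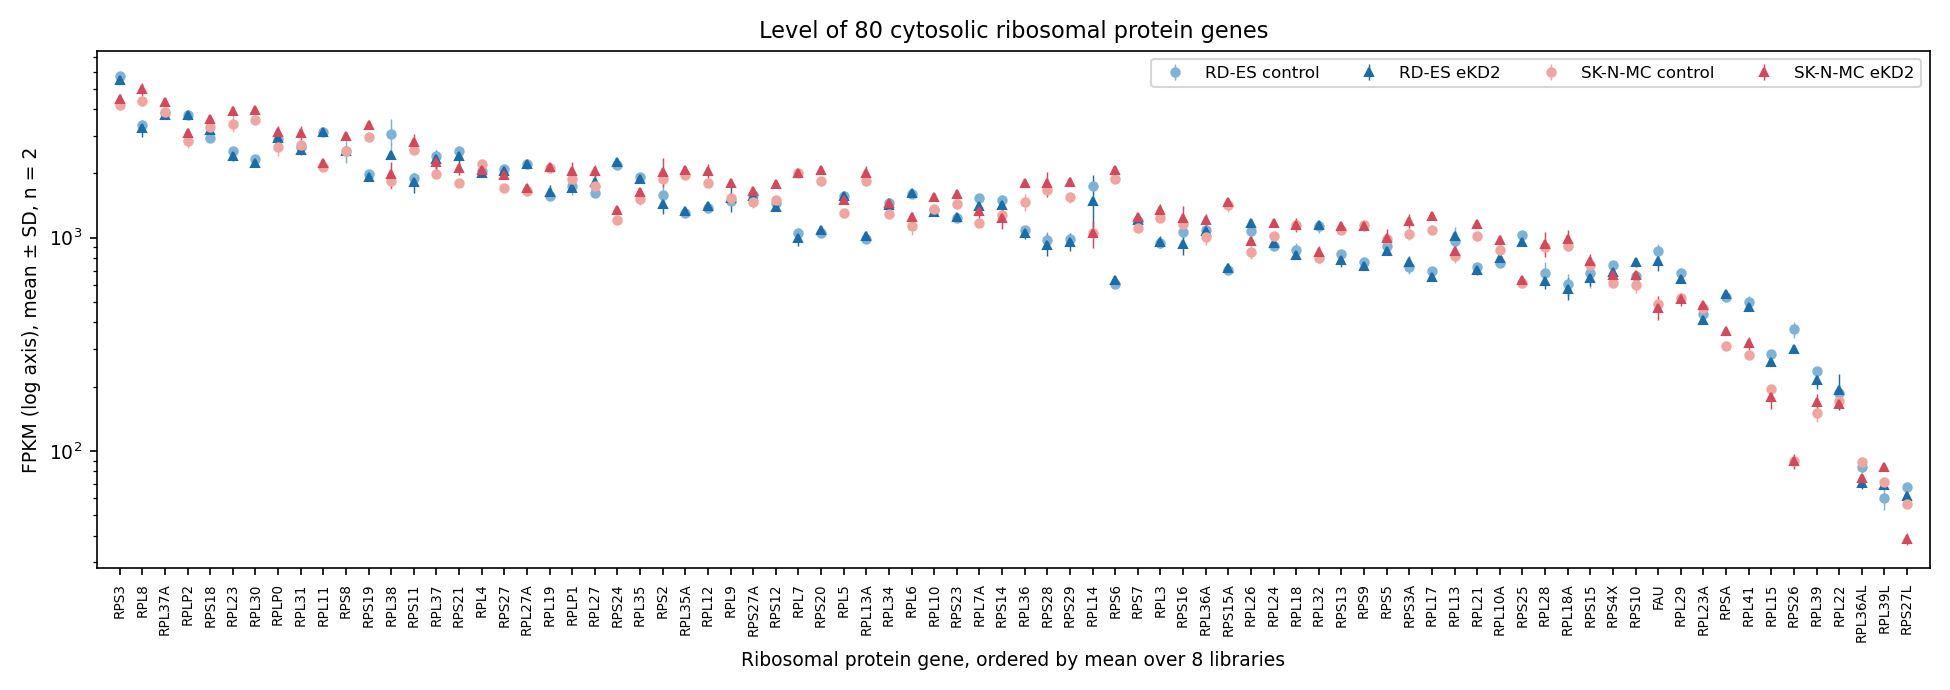
FPKM (log axis) of 80 of the 81 ribosomal protein genes that passed the filter, ordered by their mean over 8 libraries; points are means and bars SD of 2 libraries for the 4 groups. RPS3 is highest at 5739.5 FPKM in RD-ES control, the central range (quartiles) of the 81 genes spans 730 to 1900 FPKM in that group, and RPL36AL, RPL39L and RPS27L lie under 100 FPKM in all groups.

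RPS3, which lines the mRNA entry channel of the small subunit, was highest in RD-ES at 5672 and 5807 FPKM in control, and RPL8, a large subunit protein near the peptidyl transferase center, was highest in SK-N-MC at 4219.6 and 4551 FPKM. The other genes with the 5 highest means were RPL37A, RPLP2 and RPS18. The 5 lowest of those tested were RPL39, RPL22 and the paralogues RPL36AL, RPL39L and RPS27L, the last at 66.8 and 69.2 FPKM in RD-ES control. RPL3L, the paralogue of RPL3 found in striated muscle, was at 0.247 FPKM in 1 RD-ES control library and at 0 to 0.114 FPKM in the other 7, and RPL10L, the testis paralogue of RPL10, was listed at 0 in all 8. Between the control means of the lines the log2 levels of the 81 genes correlated with r = 0.911 (Spearman's rho 0.843), a description across genes that share their libraries. Reads of these genes can be divided with their many processed pseudogenes. Pseudogenes held 12.6% of the summed level of RPL39 with its copies, 6.69% for RPL23A and 2.58% for RPL32, and at most 1.60% for every other gene.

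The first comparison asked whether eKD2 changed the ribosomal protein genes in RD-ES. None of the 81 passed an adjusted p of 0.05 (limma on log2(FPKM + 1), 4 groups in 1 fit, Benjamini-Hochberg over 15175 genes), against 0.343% of all genes tested (0.264% higher and 0.0791% lower). At an unadjusted p under 0.05, RPS10 was higher and RPS26 and RPL36AL were lower, against 8.49% of all genes higher and 3.79% lower. By any amount 30 were higher and 51 lower in eKD2, and the median log2 fold change was -0.041, beside 0.031 for all genes tested. The median of a library relative to the RD-ES control mean was -0.019 and 0.019 in control and -0.043 and -0.0062 in eKD2, so the groups overlapped. RPS10, a protein of the 40S head, was at 659 and 667 FPKM in control against 789 and 739.8 FPKM in eKD2. Both eKD2 libraries were above both controls, at a change of 0.20 on the log2 scale (SE 0.0672, limma adjusted p = 0.32). RPS26, which contacts mRNA at the exit channel of the small subunit, was at 348 and 393 FPKM in control against 294 and 305 FPKM in eKD2. Both eKD2 libraries were below both controls, at a change of -0.31 on the log2 scale (SE 0.0869, limma adjusted p = 0.27). RPL38, a 60S protein known for its role in the translation of Hox mRNAs, was at 2682 and 3455 FPKM in control against 2501 and 2359.8 FPKM in eKD2, lower by the most of the 81 (log2 fold change -0.33, SE 0.148, limma adjusted p = 0.45), with its controls themselves far apart. Groups did not overlap for 9 genes that were higher (11.1%, against 24.2% of all genes) and 19 that were lower (23.5%, against 15.1%). The direction of the median depended on the scaling. After each library was scaled to the same median it was -0.113, with 25 genes lower at an unadjusted p under 0.05 (against 7.74% of all genes under that scaling), and after quantile normalization it was 0.030, with 48 of the 81 higher.

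In SK-N-MC, none of the 81 genes passed an adjusted p of 0.05 either (limma), against 0.323% of all genes tested (0.152% higher and 0.171% lower), but most were slightly higher in eKD2. At an unadjusted p under 0.05, 32 genes were higher, 17 of the large and 15 of the small subunit, and 2 were lower (RPS27L and RPL36AL), against 5.71% of all genes higher and 7.29% lower. By any amount 69 were higher and 12 lower, and the median log2 fold change was 0.138, beside -0.005 for all genes tested. Relative to the SK-N-MC control mean the median of the 81 genes was -0.032 and 0.032 in the control libraries and 0.092 and 0.179 in the eKD2 libraries. Both eKD2 medians were above both controls, and 58 and 76 of the 81 genes were above the control mean in the eKD2 libraries. Groups did not overlap for 49 genes that were higher (60.5%, against 22.2% of all genes) and 4 that were lower (4.94%, against 25.1%). With 2 libraries on each side, the smallest two-sided p that exact permutation allows is 0.333, so no single gene can be tested that way. The fibroblast marker DCN was also higher in both of these eKD2 libraries (values above), and its part was not tested.

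**Figure D2:**
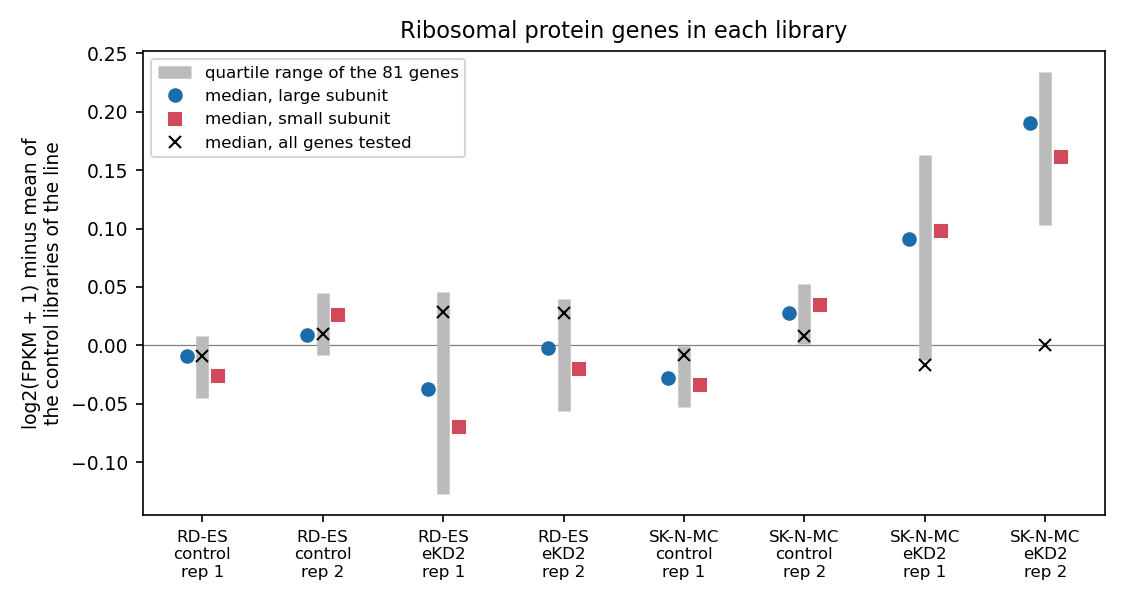
Each library's log2(FPKM + 1) minus the mean of the 2 control libraries of its line; grey bars span the quartiles of the 81 ribosomal protein genes, circles and squares are medians of the large and small subunit genes, and crosses the median of all genes tested. In SK-N-MC eKD2 both subunit medians lie between 0.091 and 0.190 while the crosses stay near 0, and in RD-ES eKD2 they lie between -0.070 and -0.0025.

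RPS12 (chr6:133135708-133138703, GRCh37, plus strand), a protein of the small subunit beak, had the highest moderated t. It was at 1450.4 and 1550.3 FPKM in SK-N-MC control against 1742 and 1837 FPKM in eKD2. Both eKD2 libraries were above both controls, at a change of 0.25 on the log2 scale (SE 0.0498, limma adjusted p = 0.16). RPL24, which reaches from the large subunit to the small one, was at 991 and 1043 FPKM in control against 1179.7 and 1167 FPKM in eKD2 (log2 fold change 0.21, SE 0.0425, limma adjusted p = 0.17). RPL5, which binds the 5S ribosomal RNA, was at 1307 and 1293 FPKM in control against 1511 and 1506 FPKM in eKD2, a change of 0.21 on the log2 scale (SE 0.0443). The groups of RPL24 and RPL5 did not overlap either. RPL17, beside the exit of the peptide tunnel, was at 1079 and 1099.8 FPKM in control against 1229.5 and 1307 FPKM in eKD2, a change of 0.22 on the log2 scale (SE 0.0454). RPSA, also known as a laminin receptor, was at 301 and 322 FPKM in control against 360.2 and 368 FPKM in eKD2, a change of 0.23 on the log2 scale (SE 0.0564). The other genes among the 8 with the highest moderated t were RPL30, RPS27 and RPL10, with log2 fold changes of 0.16 to 0.20, and the limma adjusted p of the 8 lay between 0.16 and 0.21.

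The number of ribosomal protein genes at an unadjusted p under 0.05 in SK-N-MC moved with the model. The number higher was 13 with no filter on low values, beside 1527 of all 31445 genes tested there. It was 9 with SK-N-MC fitted alone, beside 1056 of all 15175 genes. Without the trend of the spread on the level it was 8, beside 833 of all 15175 genes. Of the fits without 1 library, the number was lowest without SK-N-MC control replicate 1 and without SK-N-MC eKD2 replicate 2. It is not given there, since a group then held 1 library. The median log2 fold change was 0.092 to 0.179 without 1 library at a time. It was 0.110 without SK-N-MC control replicate 1 and 0.092 without SK-N-MC eKD2 replicate 2. The median was 0.150 after each library was scaled to the same median. After quantile normalization, which gives the genes of the top ranks the same values in every library, it was 0.026 with 47 of the 81 genes higher. In every group the second replicate had the higher value in most of the 81 genes, in 55, 48, 61 and 66 of them (RD-ES control, RD-ES eKD2, SK-N-MC control and SK-N-MC eKD2), against 53.2%, 48.4%, 53.5% and 53.4% of all genes tested. A shared shift was thus also present between libraries of 1 group, most in SK-N-MC.

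The genes that went against the others in SK-N-MC eKD2 were led by a paralogue. RPS27L (chr15:63418071-63450220, GRCh37, minus strand), a homologue of RPS27 known as a p53 target that binds MDM2, was at 56.7 and 55.7 FPKM in control against 40.5 and 36.9 FPKM in eKD2. It was 31.1% lower by the means, with both eKD2 libraries below both controls and a change of -0.53 on the log2 scale (SE 0.0703, limma adjusted p = 0.068). Keeping low genes in the fit brought it past the threshold, and the log2 fold change stayed between -0.59 and -0.46 over all alternatives. RPL36AL, a nearly identical paralogue of RPL36A, was at 90.1 and 86.2 FPKM in control against 73.1 and 75.6 FPKM in eKD2 (log2 fold change -0.24, SE 0.0776, limma adjusted p = 0.29). Its log2 fold change in RD-ES was also -0.24, from 87.2 and 80.0 to 67.4 and 73.9 FPKM. RPL4 and RPL15, both core proteins of the large subunit, were the other genes whose eKD2 libraries were both below the controls, RPL4 at 2236 and 2207 FPKM in control against 2024 and 2115 FPKM in eKD2. RPL15 was at 198.4 and 193.4 FPKM in control against 163.1 and 192.9 FPKM in eKD2, so that one eKD2 library was barely below its controls. FAU, RPS9, RPS14 and RPL22 completed the 8 lowest by moderated t, and for these 4 the control and eKD2 libraries overlapped.

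Whether eKD2 acted differently in the lines was tested as the SK-N-MC change minus the RD-ES change. None of the 81 genes passed an adjusted p of 0.05 (limma), against 0.244% of all genes tested (0.105% positive and 0.138% negative). At an unadjusted p under 0.05 the difference was positive for 21 genes and negative for RPS27L, against 4.38% of all genes positive and 9.16% negative. It was above 0 for 73 of the 81, with a median of 0.152 on the log2 scale beside -0.049 for all genes tested. RPL17 had the lowest adjusted p, with a difference of 0.31 (SE 0.0642, limma adjusted p = 0.18). The RD-ES values of RPL17 were 695 and 694 FPKM in control against 652 and 654 FPKM in eKD2, lower in both eKD2 libraries, the opposite of SK-N-MC. For RPS12 the difference was 0.30 and for RPL30, a 60S protein that also binds the selenocysteine element of selenoprotein mRNAs, 0.24, each with a limma adjusted p of 0.21. RPL21, a 60S protein, was also among the 8 highest by moderated t, at 996 and 1035 FPKM in SK-N-MC control against 1175 and 1150.1 FPKM in eKD2, without overlap, and with overlapping groups in RD-ES. RPL19 and RPL13 were among the 8 lowest, and their groups overlapped in both lines. RPS27L had a difference of -0.38 (SE 0.0994, limma adjusted p = 0.23), with RD-ES values of 66.8 and 69.2 FPKM in control against 62.2 and 60.8 FPKM in eKD2. After each library was scaled to the same median, the median difference was 0.236 with 80 of the 81 above 0, and after quantile normalization it was 0.012 with 41 above 0.

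**Figure D3:**
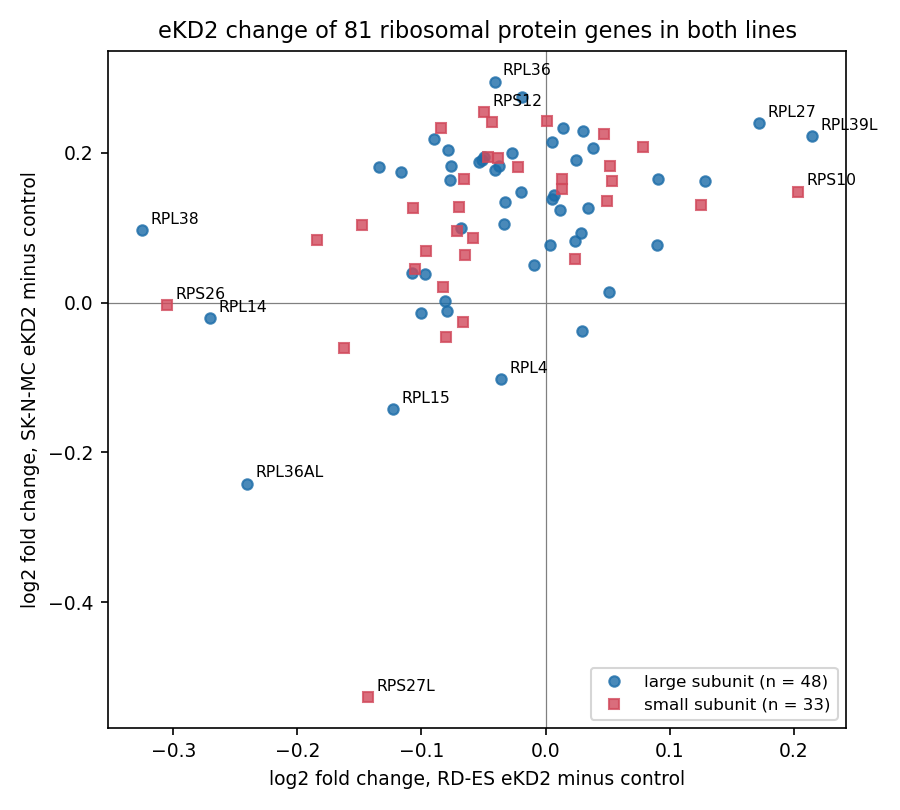
Log2 fold change of the 81 ribosomal protein genes in eKD2 against control, RD-ES on the horizontal and SK-N-MC on the vertical axis, with large subunit genes as circles and small subunit genes as squares. Most points lie above 0 on the vertical axis and on both sides of 0 on the horizontal one, and RPS27L is lowest in SK-N-MC at -0.53.

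Over the 81 genes the changes in both lines correlated with r = 0.417 (rho 0.394), against r = 0.016 over all genes tested. The lines share no library, but genes of 1 family share length, abundance and base composition, so the correlation is a description. Groups did not overlap in either line for 9 genes that were higher in both (RPL10A, RPL24, RPL26, RPL27, RPL39L, RPS10, RPS18, RPS23 and RPS6), against 5.64% of all genes tested, and 3 that were lower in both (RPL15, RPL36AL and RPS27L), against 4.03%. They did not overlap and went opposite ways, higher in SK-N-MC and lower in RD-ES, for 8 genes, RPL17, RPS12 and RPL30 among them (9.88%, against 3.55% of all genes tested). By the same measure, 60.5% of the 81 were higher in SK-N-MC and 23.5% lower in RD-ES.

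Large and small subunit genes had like medians. In SK-N-MC the median log2 fold change was 0.146 over 48 large subunit genes, of which 41 were higher, and 0.130 over 33 small subunit genes, of which 28 were higher. The difference of 0.016 was under the SD of 0.0185 with which it varied between libraries of a group. In RD-ES the medians were -0.033 and -0.059, and the difference of 0.026 was above that SD but turned to -0.012 after quantile normalization. By role, RPL5 and RPL11, which join the ribosome together with the 5S ribosomal RNA and as free proteins bind MDM2, were both higher by the means in SK-N-MC eKD2. RPL11 was at 2077 and 2191 FPKM in control against 2209 and 2291 FPKM in eKD2, and only RPL5 had an unadjusted p under 0.05. RPLP0, RPLP1 and RPLP2, which form the stalk that recruits translation factors, had a median log2 fold change of 0.138 in SK-N-MC, with all 3 higher, and of 0.0053 in RD-ES. RPLP0 was at 2477 and 2819.8 FPKM in SK-N-MC control against 2940.4 and 3283 FPKM in eKD2, with no overlap between the groups. RPS27A and FAU encode proteins that are cut from a ubiquitin and a ubiquitin-like fusion. RPS27A was at 1398 and 1531 FPKM in control against 1666 and 1652 FPKM in eKD2, with no overlap. FAU overlapped between the groups, at 498 and 479 FPKM in control against 427 and 512 FPKM in eKD2.

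Members were also read by features that the symbol rule did not use. In 29 of the 83 genes an annotated small nucleolar RNA lies inside the gene, and 28 of these 29 were higher in SK-N-MC eKD2, with a median log2 fold change of 0.166, against 41 of 52 and a median of 0.132 without one. The exception among the hosts was RPL4. In RD-ES the medians were -0.036 and -0.041. Of the 43 genes with at least 5 pyrimidines from the first base, 37 were higher in SK-N-MC eKD2, with a median of 0.147 and none lower at an unadjusted p under 0.05. Of the 22 genes tested with fewer, 17 were higher, with a median of 0.110, and RPS27L and RPL36AL, shown above without a tract at the first base or with a short one, were the 2 lower at that threshold. Among the 8 highest by moderated t, RPS12 and RPL24 have 10 pyrimidines from the first base, RPSA and RPS27 7, and RPL17 and RPL10 0. The starts of RPL5 and RPL30 were not available. Of the other genes among the 8 lowest, RPL4 has 0 and RPL15 1. FAU, RPS9, RPS14 and RPL22, also among the 8 lowest, have 9, 9, 10 and 7. The difference between the classes was not tested. By contrast, the 121 other genes whose mean reached 500 FPKM were split into 60 higher and 61 lower by any amount. In RD-ES the same 121 genes had a median of -0.054, with 91 lower.

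Paralogues were compared with their partners as a percentage of FPKM, which is scaled to length. RPL39L, a paralogue of RPL39 known from testis and several cancers, was at 22.4% and 28.6% of RPL39 in RD-ES control and at 30.9% and 33.9% in RD-ES eKD2, higher in both eKD2 libraries. In SK-N-MC it was at 46.0% and 49.7% in control and 45.2% and 53.7% in eKD2, which overlapped. RPL36AL was at 7.98% and 7.41% of RPL36A in RD-ES control and 6.76% and 6.40% in eKD2. In SK-N-MC it was at 9.53% and 8.09% in control and 6.31% and 5.94% in eKD2, so it was lower in eKD2 in both lines without overlap. RPS27L was at 3.24% of RPS27 in both RD-ES control libraries and at 3.11% and 2.91% in eKD2. In SK-N-MC it was at 3.39% and 3.17% in control and at 2.09% and 1.86% in eKD2, the lowest of the 8 libraries. In that line the numerator was lower and the denominator higher in eKD2, with RPS27 at 1675 and 1756 FPKM in control against 1939 and 1982 FPKM in eKD2.

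**Figure D4:**
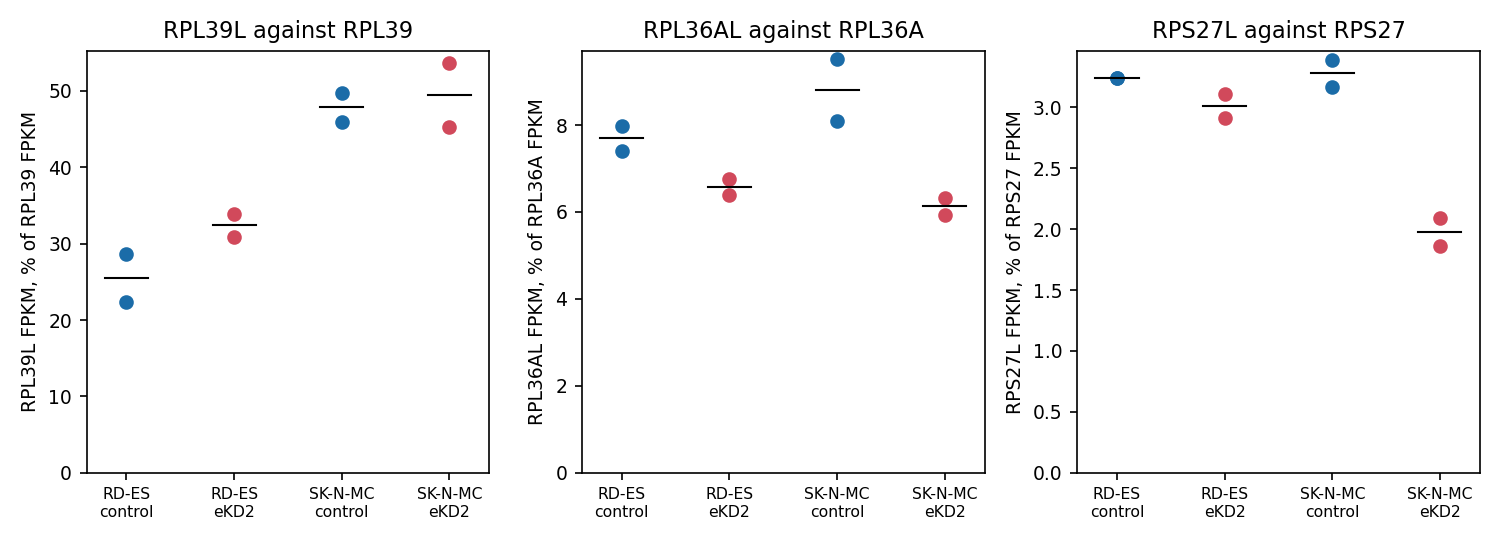
FPKM of 3 paralogues as a percentage of the FPKM of the partner gene, with 1 point per library and a line at the mean of each group; every vertical axis starts at 0. RPS27L in SK-N-MC eKD2 lies at 1.86% and 2.09% of RPS27 against 3.17% and 3.39% in control. RPL39L lies higher against RPL39 in SK-N-MC than in RD-ES, with the pseudogenes of RPL39 left out.

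Of the paralogues outside the symbol rule, RPL22L1 was at 23.3% and 24.7% of RPL22 in RD-ES control and 36.8% and 43.5% in SK-N-MC control. RPL7L1 was at 8.82% and 8.32% of RPL7 in RD-ES control against 3.30% and 3.57% in SK-N-MC control, and the level of RPL7 itself was the higher one in SK-N-MC. RPL26L1 was at 7.39% and 8.87% of RPL26 in RD-ES control and 8.57% and 5.85% in SK-N-MC control, which overlapped. In SK-N-MC the eKD2 libraries of these 3 overlapped with the controls. In RD-ES eKD2, RPL22L1 was at 38.4% and 27.9% of RPL22, above both controls, and RPL26L1 was at 4.01% and 7.30% of RPL26, below both. RPL7L1 was at 10.3% and 8.49% of RPL7 there, which overlapped with the controls.

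The control libraries of the lines were then compared gene by gene. With limma, 29 of the 81 genes were higher and 27 lower in SK-N-MC control than in RD-ES control at an adjusted p under 0.05, which is 56 of 81 against 57.8% of all genes tested (31.4% higher and 26.4% lower). The median log2 difference was 0.040, beside 0.065 for all genes tested. Scaling each library to the same median moved the median of all genes to -0.042 and that of the ribosomal protein genes to -0.109, with 24 higher and 37 lower (26.2% and 31.9% of all genes), and quantile normalization gave 35 higher and 22 lower (28.2% and 28.9% of all genes). RPS6, the 40S protein phosphorylated by S6 kinase, differed most in the upward direction, at 609.6 and 607 FPKM in RD-ES control against 1821 and 1941 FPKM in SK-N-MC control. It was 3.09 times as high in SK-N-MC, a log2 difference of 1.63 (SE 0.0448, limma adjusted p = 5.7e-06) that stayed between 1.48 and 1.85 over all alternatives. The eKD2 libraries kept it apart as well, at 634 and 626 FPKM in RD-ES against 2058 and 2074 FPKM in SK-N-MC. RPS26 differed most in the other direction, at 348 and 393 FPKM in RD-ES control against 87.7 and 91.4 FPKM in SK-N-MC control. It was 4.14 times as high in RD-ES, a log2 difference of -2.04 (SE 0.0869, limma adjusted p = 2.0e-05) that stayed between -2.18 and -1.92 over all alternatives.

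Of the other genes higher in SK-N-MC control, RPS15A was at 686 and 726 FPKM in RD-ES and 1344 and 1489 FPKM in SK-N-MC, a log2 difference of 1.00 (limma adjusted p = 1.1e-04). RPL7, RPL13A and RPS20 followed with log2 differences of 0.93, 0.90 and 0.81, and RPL17, RPL30, RPL35A, RPS9 and RPS19 of 0.57 to 0.65 completed the 10 highest by moderated t. RPL13A is known for silencing translation of inflammatory mRNAs when it leaves the ribosome, and RPL35A, RPS19 and RPS24 are among the genes mutated in Diamond-Blackfan anemia. RPS24 was lower in SK-N-MC control, at 2275 and 2110.1 FPKM in RD-ES and 1171 and 1244 FPKM in SK-N-MC, a log2 difference of -0.86 (limma adjusted p = 6.4e-05). FAU and RPL41, which encodes the smallest ribosomal protein, both had a difference of -0.83, RPSA of -0.76 and RPS25 of -0.74. RPL11, RPL6, RPL27A and RPS3 completed the 10 lowest with differences of -0.55 to -0.43, and of these 20 genes RPS3 alone lost its call under an alternative, quantile normalization, where its difference was 0.

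By the medians of whole chromosomes, these differences between the lines went with the other genes on some chromosomes and not on others. All 12 tested genes on chromosome 19 and all 4 on chromosome 8 were higher in SK-N-MC control by the means, with medians of 0.43 and 0.70 on the log2 scale, beside 0.31 and 0.78 for the other genes tested on those chromosomes. All 4 on chromosome 12 were lower, with a median of -0.67 beside -0.20. On chromosome 3, where 5 of 8 were lower, the median of -0.44 stood beside 0.28 for the other genes. On chromosome 5 the median of 3 was -0.25 beside 0.070, so both went against the median of their whole chromosome. For each of the 81 genes the median log2 difference of the other genes tested within 5 Mb of it (GRCh37) was taken as the level of its neighbourhood. Ribosomal protein genes were left out of these medians. The difference of the gene correlated with that of its neighbours with r = 0.734 (rho 0.766, n = 81), a description, since genes that lie close together share neighbours and all share 4 libraries. On chromosome 3, RPSA, RPL14, RPL32 and RPL29 (-0.76 to -0.40) had neighbours at -0.44 to -0.19. RPL24, RPL39L and RPL35A (0.15 to 0.59) had neighbours at 0.43 to 1.00, and RPL15 (-0.53) at 0.0053. On chromosome 5, RPL37 (-0.29) had neighbours at 0.589, RPS14 (-0.25) at -0.0052 and RPS23 (0.23) at 0.241.

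**Figure D5:**
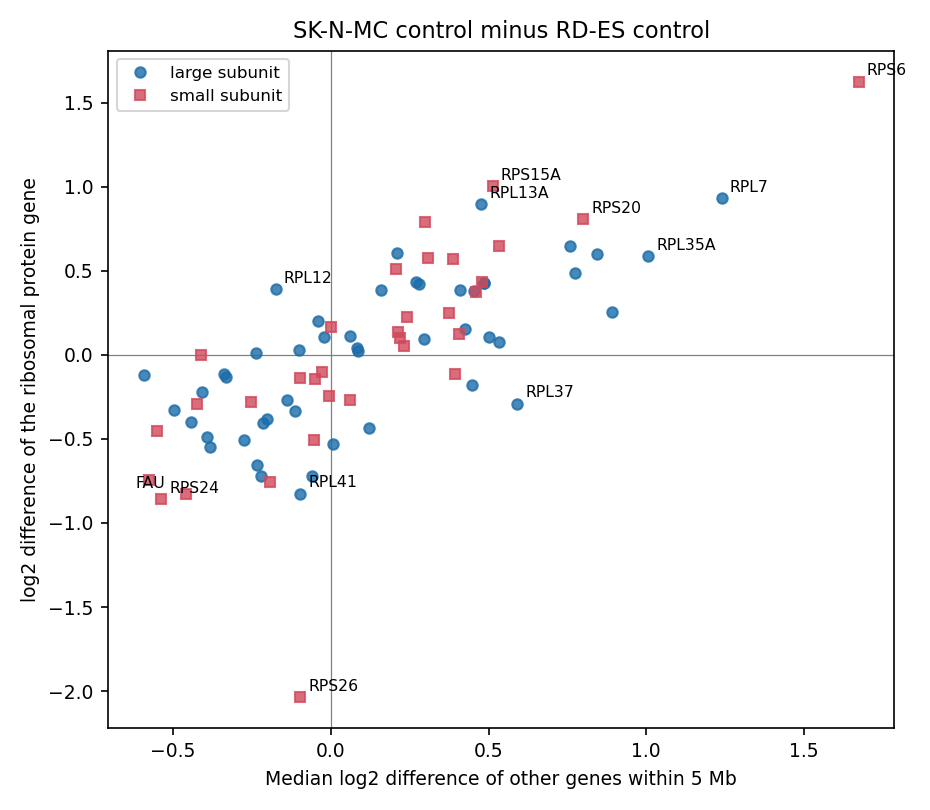
Log2 difference between SK-N-MC control and RD-ES control of each ribosomal protein gene against the median of the other genes tested within 5 Mb of it. Ribosomal protein genes are left out of that median. Points rise from lower left to upper right, RPS6 lies at 1.63 with neighbours at 1.67, and RPS26 lies at -2.04 with neighbours near 0.

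RPS6 (chr9:19375713-19380234, GRCh37, minus strand) lay among genes with a median difference of 1.67, close to its own 1.63. RPL7 on chromosome 8 had neighbours at 1.24, and RPS20, also on chromosome 8, at 0.800. RPS26 (chr12:56435135-56438481, GRCh37, plus strand) had neighbours at -0.0973, so that this median did not share its difference of -2.04. RPL41 (chr12:56510374-56511751, GRCh37, plus strand) lies close to RPS26 and was left out of that median. It was also lower in SK-N-MC, at -0.83, with neighbours at -0.0973. Copy number was not measured in these files, and its part in the differences was not tested.

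Genes that work with the ribosomal proteins were read in the same fit. Of 15 other genes known for 5′ TOP mRNAs, mostly translation factors, 11 were higher in SK-N-MC eKD2 with a median log2 fold change of 0.108, and 6 were higher in RD-ES eKD2 with a median of -0.030. None passed the adjusted threshold in either line (limma). At an unadjusted p under 0.05, 3 were higher and 1 lower in SK-N-MC (5.71% and 7.29% of all genes). EEF1B2, an exchange factor of elongation factor 1, was at 740.2 and 763 FPKM in SK-N-MC control against 829 and 896 FPKM in eKD2 (log2 fold change 0.20, limma adjusted p = 0.26). PABPC1, the cytoplasmic poly(A)-binding protein, was at 2830.5 and 2985 FPKM in control against 3254 and 3258 FPKM in eKD2 (log2 fold change 0.16, limma adjusted p = 0.31). RACK1, a 40S protein with a name outside the symbol rule, was at 2909.6 and 2989 FPKM in control against 3089 and 3510.1 FPKM in eKD2. Ribosome assembly factors did not share the SK-N-MC direction of the ribosomal proteins, with 10 of 55 higher, 45 lower and a median of -0.124. At an unadjusted p under 0.05, 2 were higher and 15 lower (5.71% and 7.29% of all genes), and none passed the adjusted threshold (limma). RIOK2, a kinase needed for the last steps of 40S maturation, was at 58.0 and 61.4 FPKM in control against 44.4 and 36.8 FPKM in eKD2, whereas EIF6, which keeps 60S subunits from joining early, was at 95.7 and 93.9 FPKM in control against 108 and 122 FPKM in eKD2. In RD-ES the assembly factors had a median of -0.025, with 20 higher and 35 lower.

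Of 16 tested genes of the mTORC1 and LARP1 axis, 2 changed in RD-ES and none in SK-N-MC at an adjusted p under 0.05 (limma). DDIT4 and SESN2, both stress-induced inhibitors of mTORC1, rose in RD-ES eKD2. SESN2 was at 5.11 and 5.56 FPKM in RD-ES control against 26.9 and 28.3 FPKM in eKD2, a change of 2.18 on the log2 scale (SE 0.0905, limma adjusted p = 6.6e-04). DDIT4 was at 4.42 and 4.26 FPKM in RD-ES control against 20.4 and 21.1 FPKM in eKD2, a change of 2.03 on the log2 scale (SE 0.0876, limma adjusted p = 7.2e-04). In SK-N-MC both eKD2 libraries were below the controls, SESN2 at 28.0 and 27.8 FPKM in control against 15.7 and 17.8 FPKM in eKD2 (log2 fold change -0.71, limma adjusted p = 0.062). The change of both genes differed between the lines, by -2.88 for SESN2 and -2.40 for DDIT4 on the log2 scale (limma adjusted p = 0.0012 and 0.0017). For this difference, 0.244% of all genes tested passed an adjusted p of 0.05. EIF4EBP1, the translation repressor that mTORC1 inactivates, was at 655 and 694 FPKM in SK-N-MC control against 815 and 926 FPKM in eKD2 (log2 fold change 0.36, limma adjusted p = 0.27).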

How the data were processed

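RNA from 8 libraries (4 groups of 2) was sequenced after poly(A) selection. The authors aligned the reads to GRCh37 with STAR and computed FPKM per gene with cufflinks and cuffnorm, and the deposited FPKM were used as given. The read counts on which the authors ran DESeq2 were not used here, so reads cannot be tested as counts. Members and gene lists were chosen with earlier results of these data known. FPKM were compared as log2(FPKM + 1), a scale that understates the change of low genes, for the 15175 genes whose mean reached 1 FPKM, with limma 3.58.1 (R 4.3.3; lmFit and eBayes with trend, 4 groups in 1 fit, two-sided, Benjamini-Hochberg, threshold 0.05). The fit was tested on simulated data. Genes named were, per comparison, the 8 highest and 8 lowest by moderated t (10 and 10 where over 20 passed), the 5 highest and 5 lowest levels, paralogues, role groups and members that failed the filter, plus the genes whose groups went opposite ways in the lines or did not overlap in both, which were picked after their values were seen. Fold changes with tests were given for named genes with an unadjusted p under 0.1, a limit set after the values were seen. Gene positions came from GENCODE v44 mapped to GRCh37, and start sequences from RefSeq on GRCh38.p14, a different build. Alternatives were the pseudocount, filter, scaling, trend, lines fitted alone, a replicate block and leaving out each library. Sums with pseudogene rows, a rescaling to genes of at least 200 bases and a block over both lines were added after seeing the data. The values of 2 genes are not reported here by name.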

Additional observations from a re-analysis of the deposited data

Results flagged for a closer look

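In 8 of the 81 ribosomal protein genes (9.88%, against 3.55% of all genes tested) both eKD2 libraries were above both controls in SK-N-MC and below both in RD-ES. By the same measure, 60.5% of the 81 were higher in SK-N-MC (22.2% of all genes) and 23.5% lower in RD-ES (15.1% of all genes). Whether 9.88% differs from what these shares alone would give was not tested. For 7 of them, the SK-N-MC change minus the RD-ES change was 0.31 for RPL17, 0.28 for RPL23, 0.24 for RPL30, 0.29 for RPL7A, 0.30 for RPS12, 0.15 for RPS25 and 0.23 for RPS4X on the log2 scale. The difference itself was tested as an interaction in limma, and the adjusted p of these 7 lay between 0.18 (RPL17) and 0.43 (RPS25), so none passed 0.05. RPL7A, a 60S protein that hosts small nucleolar RNAs in its introns, was at 1135 and 1218 FPKM in SK-N-MC control against 1268 and 1390.2 FPKM in eKD2, and at 1528 and 1533 FPKM in RD-ES control against 1386 and 1439 FPKM in eKD2. RPL23, a 60S protein that can bind MDM2, was at 3211 and 3621 FPKM in SK-N-MC control against 3786 and 4074 FPKM in eKD2, and at 2576 and 2494 FPKM in RD-ES control against 2323 and 2479 FPKM in eKD2. RPS4X, an X-linked 40S protein, was at 610.2 and 609 FPKM in SK-N-MC control against 645 and 687 FPKM in eKD2, and at 726 and 756 FPKM in RD-ES control against 662 and 715 FPKM in eKD2.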

How the results depend on the processing

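The number of ribosomal protein genes past the adjusted threshold stayed at 0 in both lines and for their difference under every alternative run, except that it was 1 (RPS27L, log2 fold change -0.53) in SK-N-MC with no filter on low values. Scaling each library to the same median moved the median log2 fold change to -0.113 in RD-ES, 0.236 for the difference between lines and -0.109 between control lines (small subunit alone -0.097). Quantile normalization moved it to 0.030 in RD-ES (small subunit 0.032, large minus small subunit -0.012), 0.026 in SK-N-MC, 0.012 for the difference (small subunit -0.0068) and 0.116 between control lines, and set the changes of RPL30 in RD-ES and RPS3 between control lines to 0. Without 1 library at a time, the median was -0.065 to -0.0062 in RD-ES, 0.092 to 0.179 in SK-N-MC, 0.109 to 0.201 for the difference and 0.012 to 0.068 between control lines, and large minus small subunit was -0.0066 to 0.029 in SK-N-MC, -0.026 to 0.026 for the difference and -0.043 to 0.010 between control lines; where an arm then held 1 library, it was assumed to vary like the other groups. The fall of LOXHD1 in RD-ES (-3.46) was no longer past the threshold with RD-ES fitted alone. Replicate numbers did not pair the libraries. Over all genes, the deviations of 6 pairs of groups correlated with r of -0.021 to 0.064 and rho of 0.065 to 0.182. Over the ribosomal protein genes r was 0.204 within RD-ES, -0.073 within SK-N-MC and up to 0.652 between the lines. With the replicate block within each line, 0 ribosomal protein genes passed the adjusted threshold in SK-N-MC. At an unadjusted p under 0.05, 42 were higher with that block (945 of all 15175 genes). There were 43 with the block over both lines (1042 of all genes) and 32 without a block (867 of all genes). Counts at that p moved by over 1.5 times under other alternatives too. Those higher in SK-N-MC were 13 with no filter (1527 of all 31445 genes), 10 with quantile normalization (894 of all 15175), 8 without trend (833) and 9 with lines alone (1056). They were also fewer without SK-N-MC control replicate 1 and without SK-N-MC eKD2 replicate 2. No count is given there, since a group then held 1 library. Those lower in RD-ES ran from 1 with lines alone (461 of all 15175 genes) to 25 with equal library medians (1175), against 2 (575). Those higher in RD-ES ran from 0 with equal library medians (824) to 8 with quantile normalization (919), against 1 (1288). Those lower in SK-N-MC reached 4 with quantile normalization (1092), against 2 (1106). For the difference, those positive ran from 2 without trend (640 of all 15175 genes) to 44 with equal library medians (1106), against 21 (665). Those negative were 5 with quantile normalization (1068), against 1 (1390). Summing all entries of a symbol was not run, since each symbol had 1 entry.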

Other observations

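Mitochondrial ribosomal proteins, which build the separate ribosome of that organelle, did not share the SK-N-MC direction of the cytosolic ones. Of 78 tested, 31 were higher and 47 lower in SK-N-MC eKD2, with a median log2 fold change of -0.066, and 45 were higher and 33 lower in RD-ES eKD2, with a median of 0.024. None passed the adjusted threshold (limma), and at an unadjusted p under 0.05 there were 6 higher and 11 lower in SK-N-MC (5.71% and 7.29% of all genes) and 3 higher and 2 lower in RD-ES (8.49% and 3.79% of all genes). MRPL39, a protein of the large mitochondrial subunit, had the lowest moderated t in SK-N-MC, at 50.2 and 47.0 FPKM in control against 35.5 and 34.6 FPKM in eKD2 (log2 fold change -0.46, limma adjusted p = 0.077). Between the control lines 14 of the 78 were higher and 26 lower in SK-N-MC at an adjusted p under 0.05, against 31.4% and 26.4% of all genes tested.

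Of 15 genes of the RNA polymerase I machinery, which transcribes ribosomal RNA, 5 were higher and 10 lower in SK-N-MC eKD2 with a median of -0.167, and 6 were higher and 9 lower in RD-ES eKD2 with a median of -0.013. None passed the adjusted threshold (limma), and 4 were lower in SK-N-MC at an unadjusted p under 0.05 (7.29% of all genes). POLR1B, the second largest subunit, was at 38.9 and 37.4 FPKM in SK-N-MC control against 30.6 and 32.2 FPKM in eKD2, and POLR1A, the largest, was at 40.0 and 47.1 FPKM in control against 29.6 and 29.9 FPKM in eKD2. In both, the eKD2 libraries were below both controls. Between the control lines, ribosome assembly factors were lower in SK-N-MC for 39 of 55 and higher for 6 at an adjusted p under 0.05 (limma). Of all genes tested, 26.4% were lower and 31.4% higher at that threshold. The assembly factors had a median log2 difference of -0.60, beside 0.065 for all genes tested.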
